A study of Mus musculus with 2 samples.

Results

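The myoepithelial contractile genes are 10 smooth muscle type genes that mature basal cells of the mammary gland use to squeeze milk towards the nipple. They were chosen by name for their known part in contraction, and all 10 were found among the 49492 genes of the read table. To follow how basal cells respond to macrophages, the study sorted basal cells from mammary glands of adult female wild-type (WT) mice by flow cytometry and grew them in 3D matrix gel. The cells were cultured either alone (ctrl, treatment none) or together with M2-like macrophages (M2) for 11 to 14 days, after which the RNA of the cultures was sequenced. The macrophages came from bone marrow, were polarised with interleukins and were kept in a transwell insert with a porous base, apart from the gel that held the basal cells. Both cultures received the same basal medium with EGF and an insulin, transferrin and selenium supplement (ITS). Each group held 1 library, so the differences have no replicate check, and the number of mice behind each library was not given in the sources used here.

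Myoepithelial cells surround the luminal cells of ducts and alveoli and contract when oxytocin from the pituitary binds its receptor. The receptor raises calcium through the G protein Gq, calcium and calmodulin activate myosin light chain kinase, and the kinase phosphorylates the light chain so that smooth muscle myosin pulls on smooth muscle actin. Calponin, transgelin and tropomyosin sit on the actin filament. In smooth muscle most of these genes are driven by serum response factor (SRF) with a coactivator, myocardin or one of the related MRTF proteins, through a promoter element called the CArG box.

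The ctrl library held 26912610 reads in genes and the M2 library 29413844. Although basal cells were sorted, both libraries contained reads of basal and of luminal marker genes. The basal keratins Krt5 and Krt14 had 56383 and 81991 reads in ctrl, beside 83619 and 68968 in M2, the basal regulator Trp63 had 5445 in ctrl and 6331 in M2, and the luminal keratin Krt8 had 29888 and 36348. By flow cytometry, the study reported a larger share of basal and a smaller share of luminal cells in co-cultured than in control colonies. Whether those were the sequenced cultures is not given in the sources used here. Fewer cells of a type and less RNA per cell cannot be told apart in such bulk libraries. A difference is given as a log2 value of M2 over ctrl after scaling to the effective library size (trimmed mean of M values, TMM), with a 95% interval that covers counting error only. A gene with at least 10 reads over both libraries was tested, and it was called at a difference of at least 2-fold. Of 19233 genes tested, 9.53% were called higher and 7.82% lower in M2.

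In their median and in their summed reads the members stood at nearly the same level in both libraries, while 3 single members were far apart. Of the 9 members with enough reads, the oxytocin receptor gene Oxtr was called lower, the enteric smooth muscle actin gene Actg2 and the tropomyosin gene Tpm2 were called higher, and 6 were not called. Read against the percentages above, 1 of 9 lower and 2 of 9 higher are small counts. Those percentages cover genes of all depths. Among genes with at least 1000 reads over both libraries, as each of the 9 had, 4.51% were called higher and 3.00% lower. The median log2 difference of the 9 members was -0.05, beside a median of -0.0032 over all genes tested. The 10 members together held 114621 reads in ctrl and 128751 in M2, which were 0.426% of the ctrl library (95% Wilson interval 0.423 to 0.428) and 0.438% of the M2 library (0.435 to 0.440). The log2 difference of the sum was 0.10 (95% interval 0.09 to 0.11). This sum leans on Tpm2, which made up 11.5% of the member reads in ctrl and 24.4% in M2. A sum without Tpm2 was not formed, so the sign of the summed difference is given only with Tpm2 included.

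**Figure D1:**
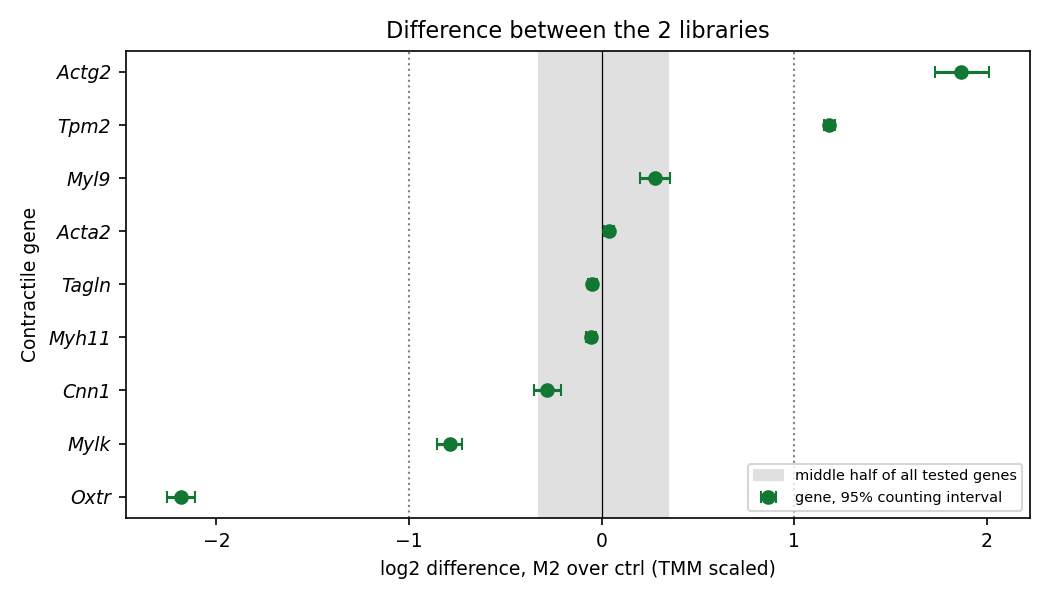
The log2 difference between the M2 and the ctrl library (x axis, TMM scaled) is plotted for the 9 contractile genes with enough reads, with bars for the 95% counting interval, a grey band from the lower to the upper quartile of all genes tested and dotted lines at 2-fold. Oxtr lies far to the left at -2.18, Actg2 and Tpm2 lie to the right at 1.87 and 1.18, and Acta2, Tagln and Myh11 lie within 0.06 of 0.

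The actin filament was examined first. Acta2 (chr19:34241090-34255336, GRCm38, minus strand) encodes alpha smooth muscle actin, the standard marker of myoepithelial cells. It had 24752 reads in ctrl and 26655 in M2, or 901 and 925 CPM (reads scaled to a common library size). Its log2 difference was 0.04 (95% interval 0.01 to 0.06), and with scaling by library size alone the sign turned to -0.02. Actg2 (chr6:83512905-83536265, minus strand) encodes gamma smooth muscle actin, which is best known from gut and bladder muscle. It had 533 reads in ctrl and 2042 in M2, or 19.4 and 70.9 CPM. The difference was 1.87 (1.73 to 2.01), a 3.65-fold higher level in M2. Actg2 stayed the minor isoform: corrected for gene length, it made up 2.40% of the smooth muscle actin pair in ctrl and 8.06% in M2.

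Actin genes are close paralogs, so it matters whether their reads can be told apart. The coding sequence of Actg2 was identical to that of Acta2 at 84.2% of aligned bases, and that of the skeletal muscle actin gene Acta1 at 85.4%. The first 30 coding bases of these genes, from the GENCODE M21 transcripts and starting with the start codon, show how the differences are spread. Capitals mark bases that differ from Acta2 in a global alignment.
Acta2: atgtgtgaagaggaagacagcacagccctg
Actg2: atgtgtgaagaagaGaCcacCgccctTgtg
Acta1: atgtgCgaCgaAgaCgaGaCcacCgcTctT
The coding sequence of Actg2 has 1131 bases and that of Acta2 1134, so the bases of Actg2 after the gap are shifted. Of all 50-base windows in the transcripts of Acta2, 0.326% were found in another gene, the cytoplasmic actin gene Actg1 among them, and of those of Actg2 0.0%. For windows of 100 bases both shares were 0.0%. The read length was not given in the sources used here. Acta1 itself had 118 and 389 reads, a log2 difference of 1.64 (1.35 to 1.96), and Actc1, the cardiac actin, had only 2 and 13 reads.

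The motor and its switch were examined next. Myh11 (chr16:14194527-14291408, minus strand) encodes the smooth muscle myosin heavy chain. The ctrl library held 28173 of its reads and the M2 library 28442 (1026 and 987 CPM), a log2 difference of -0.06 (-0.08 to -0.03). Myl9 (chr2:156775420-156781658, plus strand) encodes the regulatory light chain that is phosphorylated when the cell contracts. It had 2516 and 3199 reads (91.6 and 111 CPM), a difference of 0.28 (0.20 to 0.35). The kinase that acts on it went the other way without reaching 2-fold. Mylk (chr16:34745210-35002420, plus strand), which encodes myosin light chain kinase, had 4902 reads in the ctrl library and 2977 in the M2 library (178 and 103 CPM). Its difference was -0.79 (-0.85 to -0.72), and 10.6% of all genes tested had a lower value. Per read of Myh11, Mylk had 0.174 reads in ctrl and 0.105 in M2. The table counts all transcripts of Mylk as 1 gene, and 2.66% of the 100-base windows of its transcripts were also found in another gene, so its value is less certain than that of Myh11 or Myl9, where none were.

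Of the proteins that sit on the filament, only tropomyosin was called. Tpm2 (chr4:43514711-43523765, minus strand), the beta tropomyosin that lies along the actin groove, had 13197 reads in the ctrl library and 31402 in the M2 library (480 and 1090 CPM). The difference was 1.18 (1.15 to 1.21), or 2.27-fold. Among genes with at least 1000 reads over both libraries, which Tpm2 exceeds, 4.51% were called higher and 3.00% lower. Cnn1 (chr9:22099216-22109630, plus strand), encoding calponin, had 3748 and 3235 reads (136 and 112 CPM), a difference of -0.28 (-0.35 to -0.21). Tagln (chr9:45929619-45936058, minus strand), encoding transgelin, had 28476 and 28878 reads (1037 and 1002 CPM), a difference of -0.05 (-0.07 to -0.03). The value of Tagln is uncertain in one respect. A feature on the opposite strand of the same table covers 62.4% of its exonic bases and carried 28646 and 28704 reads, nearly the number of Tagln in each library. Pcsk7, also on that strand, covers 5.43% and had 1134 and 1113 reads. Of the 100-base windows in the transcripts of Tagln, 48.3% were also found in another gene, on either strand. Whether the counting used strand is not given in the sources used here, so reads of Tagln and of the opposite strand cannot be told apart. The other 9 members share exonic bases with no other feature of the table.

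The receptor was the member with the largest difference. Oxtr (chr6:112473683-112489943, minus strand) encodes the receptor through which oxytocin makes myoepithelial cells contract. It had 8324 reads in ctrl and 1920 in M2, or 303 and 66.6 CPM. The log2 difference was -2.18 (-2.26 to -2.11), a 4.55-fold lower level in M2, and 2.17% of all genes tested had a lower value. Within a library, the size of the difference depended on the gene that Oxtr was set against. Per read of Acta2 there were 0.336 reads of Oxtr in the ctrl library and 0.0720 in the M2 library (log2 change -2.22, -2.30 to -2.15). Per read of Trp63 there were 1.53 and 0.303 (log2 change -2.33, -2.42 to -2.25). The log2 change was -2.68 per read of Krt5 (-2.76 to -2.61), -1.87 per read of Krt14 (-1.94 to -1.79) and -1.40 per read of Mylk (-1.49 to -1.30), so it was negative against all 5 genes and smaller than the scaled difference against Krt14 and Mylk. Oxtr was the only member past 4-fold, a threshold that 2.57% of all genes tested passed downwards and 3.20% upwards.

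The coactivator was barely detected. Myocd (chr11:65176561-65269989, minus strand), which encodes myocardin, had 0 reads in ctrl and 1 read in M2. The limit that a count of 0 allows, 3 reads, corresponds to 0.109 CPM at the depth of ctrl and 0.104 CPM at that of M2, so a difference was not detectable at this depth and no fold is given. Acta2, Tagln and Myh11, with between 901 and 1037 CPM each in ctrl, were thus abundant in libraries in which Myocd was at or near 0. For Tagln this carries the strand limit given above. The genes of its partner and relatives were detected and not called: Srf, encoding SRF, had 2142 and 2253 reads (log2 difference 0.0036, -0.08 to 0.09), and the MRTF genes, listed as Mkl1 and Mkl2, had 1552 and 1318 reads (-0.30) and 2061 and 1970 reads (-0.13).

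Corrected for gene length, the order of the members changed mainly through Oxtr and Actg2. In ctrl, the levels in TPM, the share of a gene in the length-corrected library, were 1356 for Tagln, 1316 for Acta2, 430 for Tpm2, 402 for Myh11, 205 for Myl9, 165 for Oxtr, 130 for Cnn1, 45.7 for Mylk and 32.4 for Actg2. In M2 they were 1310 for Acta2, 1271 for Tagln, 945 for Tpm2, 375 for Myh11, 241 for Myl9, 115 for Actg2, 103 for Cnn1, 35.1 for Oxtr and 25.6 for Mylk. Tagln and Acta2 led in both libraries, at ranks 59 and 61 of all genes in ctrl and 74 and 72 in M2. The level and rank of Tagln carry the strand limit given above. Oxtr moved from rank 793 to 4149, Actg2 from 4495 to 1208 and Tpm2 from 257 to 115. Without replicates, the order of neighbours such as Tagln and Acta2 or Tpm2 and Myh11 in ctrl could not be set against any spread.

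**Figure D2:**
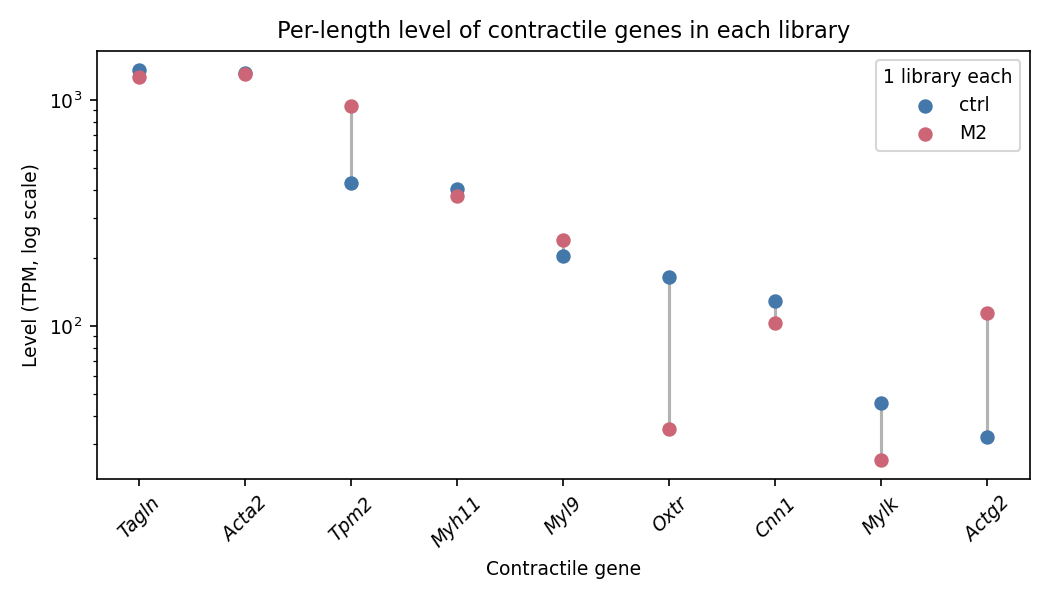
The level of 9 contractile genes (x axis, ordered by their level in ctrl) is plotted in TPM on a log scale (y axis), with 1 point for each library and a line joining them; Myocd, with 0 and 1 reads, is left out. The points of Tagln, Acta2 and Myh11 nearly coincide, whereas Oxtr drops from 165 to 35.1 and Actg2 and Tpm2 rise from 32.4 to 115 and from 430 to 945.

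To compare each smooth muscle isoform with its nonmuscle relatives, ratios were formed within each library, which need no scaling between libraries. The smooth muscle actins Acta2 and Actg2 had 0.356 reads per read of the cytoplasmic actins Actb and Actg1 in ctrl and 0.371 in M2 (log2 change 0.06, 0.03 to 0.09). Acta2 over Actb alone changed by -0.18 (-0.22 to -0.15), so the sign depends on the genes in the ratio. The ratio of Myh11 to the nonmuscle heavy chain genes Myh9, Myh10 and Myh14 changed by 0.12 (0.10 to 0.15) in reads. Corrected for gene length, it changed by 0.26. Within that denominator Myh14 was itself called lower, with 24558 and 9294 reads and a difference of -1.47 (-1.51 to -1.44). Myl9 over its nonmuscle relatives Myl12a and Myl12b changed by 0.19 (0.10 to 0.28).

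All 4 tropomyosin genes had more reads in M2 after scaling, and 2 of them were called. Tpm1 had 31037 and 46663 reads, a log2 difference of 0.52 (0.50 to 0.54). Tpm3 had 18602 and 30462 reads and differed by 0.64 (0.62 to 0.67). Tpm4 had 12348 and 28880 reads and was called, at 1.16 (1.13 to 1.19), close to the value of Tpm2. The ratio of Tpm2 to the other tropomyosins changed by 0.48 (0.44 to 0.51) in reads and by 0.34 when corrected for gene length. Cnn1 and Tagln were lower in M2 relative to their widely expressed paralogs, which were themselves higher. Tagln2 differed by 0.51 beside -0.05 for Tagln, and Cnn2 and Cnn3 by 0.57 and 0.13 beside -0.28 for Cnn1. Cnn1 over Cnn2 and Cnn3 changed by -0.57 (-0.64 to -0.49), and Tagln over Tagln2 by -0.56 (-0.61 to -0.50). The ratio of Tagln carries the strand limit given above.

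**Figure D3:**
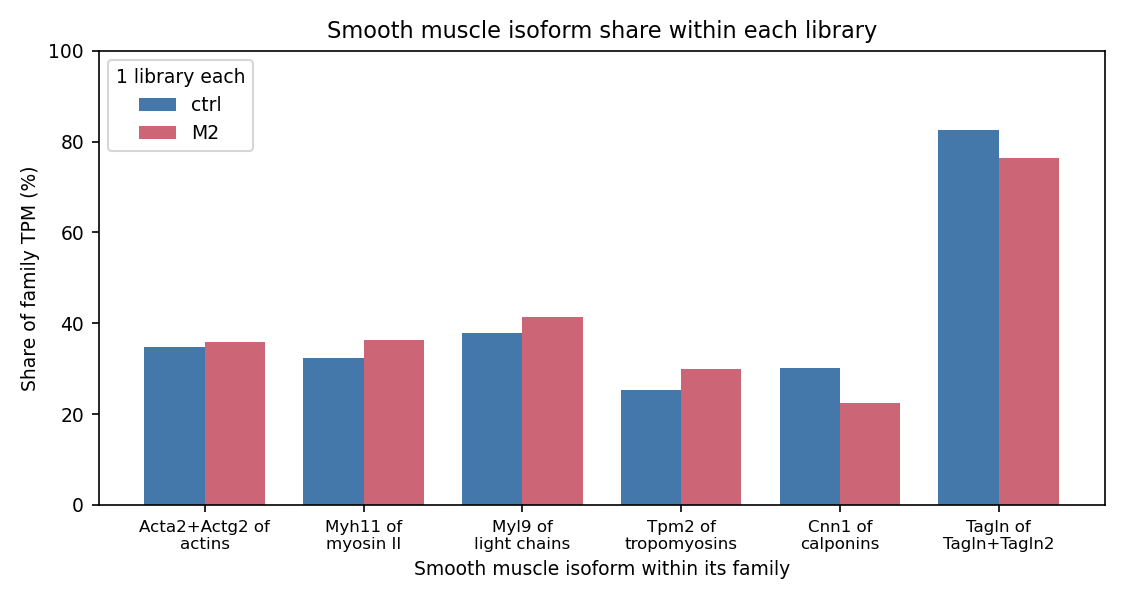
The share that the smooth muscle isoform takes of the summed TPM of its family (y axis, percent) is drawn for 6 families as 1 bar per library. The share of Tagln is 82.6% in ctrl and 76.4% in M2, and that of Cnn1 among calponins 30.2% and 22.4%. Tpm2 goes from 25.2% to 29.9% of tropomyosins, while the actin share is 34.8% and 36.0%. Tagln2, Cnn2 and Cnn3 were themselves higher in M2. The reads of Tagln carry the strand limit given in the text.

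Whether the members followed the basal lineage depended on the basal gene. Per read of Krt5 and Krt14 together there were 0.828 reads of the 10 members in ctrl and 0.844 in M2 (log2 change 0.03, 0.01 to 0.04). The member sum in this and the next ratios leans on Tpm2, as stated above. Against Krt5 alone the change was -0.40, against Krt14 alone 0.42 and against Trp63 -0.05 (-0.10 to 0.0037). Corrected for gene length, the change was 0.13 against both keratins, -0.34 against Krt5, 0.48 against Krt14 and 0.01 against Trp63. Of 22 basal genes tested, 5 were called higher and 0 lower, with a median of 0.45. They included Krt17 with 6051 and 16592 reads (1.39), Itga3 with 2823 and 7455 (1.33) and Tspan18 with 43 and 1184 (4.68), and Itgb1, encoding the integrin used in sorting basal cells, had 27481 and 45655 reads (0.66). Of 24 luminal genes, 3 were called higher and 9 lower, with a median of -0.14. Lcn2 (12343 and 76343 reads), Prom1 (285 and 1125) and Muc1 (467 and 1841) were higher, and the hormone receptor genes Pgr (3195 and 575) and Esr1 (1028 and 281) and the growth factor gene Areg (1137 and 315) were lower. Among the abundant luminal genes, Aldh1a3 and Krt8 differed by 0.31 and 0.21, whereas the milk protein gene Wfdc18 (49957 and 15995 reads, -1.71) and the receptor gene Kit (15110 and 4973, -1.67) were called lower.

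The wider smooth muscle apparatus was called about as often as all genes tested, which cover all depths. Of 32 further genes of the contractile and anchoring machinery 31 were tested, 4 were called higher and 1 lower, and the median was 0.22. Of all genes tested, 17.3% were called in either direction. Among genes with at least 1000 reads over both libraries, 4.51% were called higher and 3.00% lower. The most abundant genes of this list exceed that depth. Its most abundant genes were Cald1, encoding the actin-binding protein caldesmon, with 75248 and 107612 reads (0.45), the filamin gene Flna with 39909 and 48862 (0.22), and Tpm1. The highest was Kcnmb1, encoding the smooth muscle subunit of the calcium-activated potassium channel, with 60 and 471 reads, a difference of 2.88 (2.51 to 3.32). The LIM domain gene Fhl2 had 964 and 2920 reads (1.53), and the junctophilin gene Jph2 had 173 and 524 (1.52). Synm, encoding the intermediate filament protein synemin, was the 1 lower gene, with 480 and 240 reads (-1.07). The nonmuscle actomyosin list held 17 genes, of which 1 was called higher (Tpm4) and 1 lower (Myh14), with a median of 0.16. Its most abundant genes Myh9, Actg1 and Actb differed by 0.06, -0.09 and 0.22.

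Of 15 regulators around SRF, 1 was called higher, 0 lower, and the median was -0.22. Elk3, encoding an ETS factor that binds DNA together with SRF, had 910 and 2399 reads (1.33). Among the most abundant, the Hippo pathway factor Tead1 differed by 0.16 and the MEF2 factors Mef2d and Mef2a by -0.22 and -0.36. Of 22 genes of Gq and calcium signalling, which hold parts of the oxytocin receptor's pathway, its regulators and the related vasopressin receptor gene Avpr1a, 21 were tested, 2 were called higher and 1 lower, and the median was -0.18. Plcb4, a phospholipase C that Gq activates, had 209 and 816 reads (1.89), Avpr1a had only 22 and 54 (1.19), and Rgs2, whose product switches Gq off, had 1008 and 460 (-1.20). The calmodulin genes Calm2 and Calm3 differed by 0.61 and 0.01 and the calcium pump gene Atp2a2 by -0.28. The Gq genes Gnaq and Gna11 had 2380 and 2419 reads (-0.05) and 893 and 825 reads (-0.18). In all, 18 of these genes were not called.

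**Figure D4:**
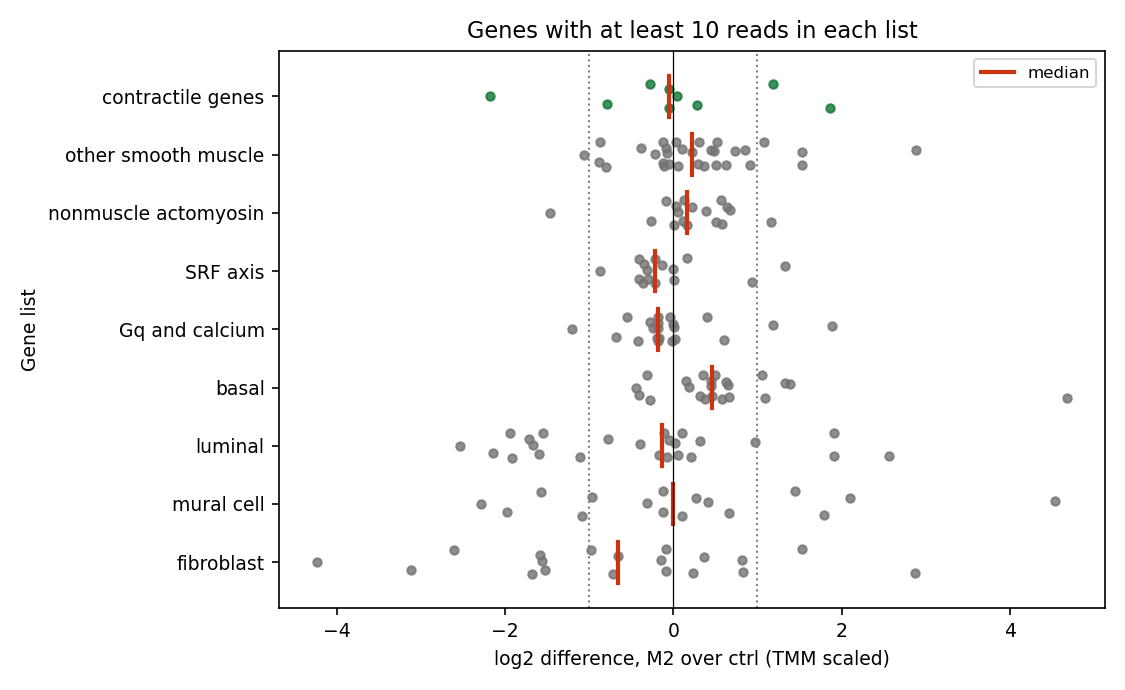
Each point is 1 gene with at least 10 reads, placed by its log2 difference between M2 and ctrl (x axis), for the contractile genes and 8 other lists (y axis; points are shifted vertically only to separate them). Red bars are list medians, which run from -0.66 for fibroblast genes to 0.45 for basal genes, and the contractile genes stand at -0.05 with Oxtr, Actg2 and Tpm2 outside the dotted 2-fold lines.

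Smooth muscle genes are also expressed by vascular mural cells and by activated fibroblasts, so markers of these cells were counted in the same libraries. The 20 mural cell genes summed to 786 CPM in ctrl and 543 in M2, beside 4173 and 4468 CPM for the 10 members. Of 16 tested, 4 were called higher and 4 lower (median -0.0094). Notch3 (9823 and 4838 reads), Itga8 (6085 and 3263), Mcam (2252 and 3751) and Lmod1 (2750 and 2643) held most of the sum. Rgs4 (9 and 242 reads), Ednra (75 and 341) and Cox4i2 (49 and 181) were higher, and Pdgfrb (259 and 55) and Notch3 (log2 difference -1.09) were lower. Notch3, also among the defining markers, alone had 358 CPM in ctrl and 168 in M2. The other defining markers Rgs5, Pdgfrb, Cspg4, Abcc9, Kcnj8, Cox4i2 and Higd1b summed to 15.8 and 13.0 CPM, and Higd1b had 1 and 0 reads. The 21 fibroblast genes summed to 5950 and 5474 CPM, with 7 called lower and 2 higher of 19 tested and a median of -0.66. Postn (72824 and 71795 reads), Fn1 (31707 and 59215) and Col5a2 (12469 and 4341) were the most abundant, Col6a3 (-4.24), Col14a1 (-3.12) and Col3a1 (-2.61) were the lowest, and Fbln1 (2.88) and Dcn (1.53) the highest. Dpt, with 1 and 4 reads, and Lum, with 10 and 3, were near 0, but other fibroblast markers were present in both libraries: Pdgfra had 607 and 822 reads, Col1a1 2057 and 1097, Col1a2 4463 and 1457, and Mmp2 2623 and 935. What part these cells have in the reads of the members was not tested.

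Reads of the macrophages themselves were scarce. Of 20 macrophage genes, 16 in ctrl and 13 in M2 had at most 3 reads, and the defining genes Adgre1, Tyrobp and Fcer1g had 0 in both libraries. The list summed to 65.2 and 84.6 CPM, of which Arg1 gave 54.9 and 72.5. Of 6 macrophage genes tested 3 were called higher and 0 lower (median 0.83): Aif1 with 3 and 40 reads (3.29), Cd163 with 2 and 30 (3.30) and Itgam with 3 and 9. Cd68 (170 and 165 reads) and Csf1r (94 and 92) were not called. A filter of at least 1 CPM in each library leaves out Aif1, Cd163 and Itgam, which were under 1 CPM in ctrl. It keeps Arg1, Cd68 and Csf1r, of which 0 were called higher, with a median of -0.0999. Because this filter drops any gene near 0 in ctrl, it cannot show whether macrophage genes were higher in M2. Of 12 endothelial genes, 7 were tested, with 3 called higher and 2 lower (median 0.61). Flt1, with 158 and 3263 reads, gave most of a sum of 10.4 and 119 CPM, Pecam1 (33 and 76 reads) was also higher, and Eng had 54 and 72. Of 15 genes of striated muscle, 12 were tested, with 3 called higher and 1 lower (median 0.61). Tnnt2 (1659 and 2514 reads), Acta1 and Myh3 (70 and 119) were the most abundant, and Tnni2 (19 and 64) was among the higher.

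To see what the members share beside their function, the RefSeq promoters (GRCm38.p6, 250 bases before to 50 after a transcription start) were searched for CArG boxes. Promoters were found for 6 members: Acta2, Cnn1, Myl9, Mylk, Oxtr and Tpm2. A box was counted when 6 bases lay between CC and GG and at least 5 of them were A or T, a pattern that reads the same on both strands. Acta2 and Myl9 held 2 boxes each, and Cnn1, Mylk, Oxtr and Tpm2 held 0. The window of Mylk (chr16:34784700-34784999) lies inside the gene as the read table lists it, and the listed 5′ end of Mylk was not searched. Of all 32851 promoters in the table, 9.98% held at least 1 such box, and 1.63% held a box in which all 6 were A or T, as Myl9 did. Of the members searched, those with and those without a box both included genes that were not called. The boxes are shown as the element named above for SRF. Each line gives 30 bases on the strand of the gene with the box in capitals.
Acta2, chr19:34255438-34255467, minus strand: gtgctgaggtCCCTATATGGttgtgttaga
Acta2, chr19:34255388-34255417, minus strand: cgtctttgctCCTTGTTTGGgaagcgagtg
Myl9, chr2:156775293-156775322, plus strand: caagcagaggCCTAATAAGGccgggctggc
Myl9, chr2:156775355-156775384, plus strand: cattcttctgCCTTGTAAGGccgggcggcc
The boxes of Acta2 begin 121 and 71 bases before the 5′ end of the gene as the read table lists it, and those of Myl9 117 and 55 bases before it. No match in a window of this length says only that these letters are absent from it, and a match is a description of the sequence and not of binding.

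The calls depend on how much a gene is assumed to vary between cultures, which 1 library per group cannot show. An added exact binomial test of the reads, which compares the libraries and not the conditions, left the calls of all 3 members in place, where 8.16% of all genes tested were higher and 6.55% lower. In the exactTest of edgeR with the biological coefficient of variation set to 0.2, where 5.01% were higher and 3.59% lower, Oxtr (adjusted p = 1.56e-05) and Actg2 (adjusted p = 0.000398) were still called, and Tpm2 was not (adjusted p = 0.0517). With 0.4, where 0.910% were higher and 0.676% lower, none of the 3 was called (adjusted p = 0.329 for Oxtr, 0.599 for Actg2 and 1 for Tpm2).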

How the data were processed

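RNA-seq libraries of 1 ctrl and 1 M2 culture were compared. Per the labels, a SMARTER mRNA kit was used. The deposited table gives, for each gene, the authors' read counts without normalization, exon coordinates and a length. The series text speaks of a microarray, but the values are sequencing counts. The submitters' processing notes name the builds GRCm38 and mm10, and the aligner, counting tool, annotation release and use of strand are not given in the sources used here. Reads per gene were scaled with TMM (factors 1.02 for ctrl and 0.980 for M2) in edgeR 4.0.16 under R 4.3.3. The log2 difference used a pseudocount of 1 read, and its interval is the 95% Clopper-Pearson interval of a gene's reads in M2 among both libraries (scipy 1.17.1). Ratios within a library have Wald intervals of the log ratio. Intervals and the floor of 3 reads cover counting error only, since no molecular identifiers are stated. TPM was computed from the listed gene length. Fold calls were made without a p-value, as a test on reads compares these libraries and not the conditions. As alternatives, calls also required a Benjamini-Hochberg adjusted p under 0.05 in an exact binomial test or in the exactTest of edgeR. The functions were tested on simulated data.

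The members and the 11 gene lists were chosen with earlier results of these data known. Of each list, the text names the 3 genes with the most reads and up to 3 called genes with at least 50 reads that differ most in each direction. Ratios other than those of actins and basal keratins, Tpm3 and any other gene named outside this rule were chosen after the values were seen.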

Additional observations from a re-analysis of the deposited data

How the results depend on the processing

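Under 4 other scalings, 2 other pseudocounts and 2 other filters, each of the 9 tested members kept its side of the 2-fold threshold; only Acta2 changed sign, with scaling by library size alone. The medians of the members and of the 11 lists stayed within their 95% order-statistic intervals under each of these, which are wide for short lists: with at least 1 CPM in both libraries, the median turned to -0.0999 for macrophage genes (from 0.83) and to 0.10 for mural cell genes (from -0.0094), and was -0.41 for fibroblast (from -0.66) and 1.11 for endothelial genes (from 0.61). With at least 1 read summed it was 0.46, 0.10, -0.15 and 0.35 for these lists in the same order, and 0.34 for striated muscle genes (from 0.61). The filter of at least 1 CPM leaves out genes near 0 in either library. Called lower and higher were 2 and 2 members at 1.5-fold, where Mylk was added, and 1 and 0 at 4-fold, 1 and 1 with an assumed coefficient of variation of 0.2, and 0 and 0 with 0.4. Over all genes, 797 were higher and 583 lower with at least 1 CPM in both libraries, 3174 and 4001 with at least 1 read summed, 3179 and 2842 at 1.5-fold, 616 and 494 at 4-fold, 964 and 691 with a coefficient of 0.2, and 175 and 130 with 0.4. With at least 1 read summed, 44.2% of calls were higher, against 54.9%. The smooth muscle to cytoplasmic actin ratio turned to -0.18 with Acta2 over Actb alone. The ratio of members to basal keratins turned to -0.40 with Krt5 alone and -0.050 with Trp63, and was 0.42 with Krt14 alone. The cause was not tested. No paired analysis was possible because ctrl and M2 were each sequenced once. Depth limits only Myocd among the members.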
